A study of Mus musculus with 12 samples.

Results

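The genes of the peroxisome proliferator-activated receptors (PPARs) and of the proteins that work with them on DNA were described in single cells of mouse white fat. They are 8 of the 31053 genes in the count files and were chosen by name. Pparg, Ppara and Ppard encode the PPARs, Rxra and Rxrb encode retinoid X receptors (RXRs), Ppargc1a and Ppargc1b encode coactivators, and Ncor1 encodes a corepressor. Each of the 8 was listed once in every library. The stromal vascular fraction (SVF) of epididymal (eWAT) and inguinal (iWAT) white adipose tissue was profiled in 12 libraries, 6 per depot, from male mice aged 12 weeks. The labels call the libraries of a group biological replicates and do not tell whether its eWAT and iWAT libraries came from the same mice. The groups were lean C57BL/6J mice given vehicle (WT-Veh), obese Lepob/Lepob mice given vehicle (ob/ob-Veh) and Lepob/Lepob mice given rosiglitazone (ob/ob-Rosi), with 2 libraries per group and depot. Rosiglitazone (Rosi) was gavaged at 30 mg/kg, morning and evening, for 3 days, and vehicle was methylcellulose in culture medium. The Lepob allele removes leptin from the whole animal from birth, no lean mouse given Rosi was among the libraries, and the floating mature adipocytes had been taken out of the SVF.

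PPARs are nuclear receptors that are switched on by fatty acids and related lipids. Each pairs with an RXR on DNA, where coactivators raise and corepressors lower the activity of nearby genes. PPARγ, the product of Pparg, is the receptor that rosiglitazone binds and is required to form adipocytes, and its best known targets take up, carry and store fatty acids. It is also known in endothelial cells of fat and in macrophages.

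After filtering, 126095 cells were kept, 57613 from eWAT and 68482 from iWAT, with 19593940 to 66315901 unique molecular identifiers (UMIs, each counting 1 RNA molecule) per library and a median of 1132 to 4961 UMIs per cell. Library pairs shared 0.191% to 3.29% of the cell barcodes of the smaller library. Cells were clustered without the 8 genes and without known PPAR target genes, and clusters were named "X-like" from marker genes. The iWAT library labelled WT-Veh replicate 1 stood apart, with the lowest median UMI count and 7535 cells in a cluster left unnamed. In ob/ob-Veh of iWAT, unnamed clusters held 3522 of 7205 and 2548 of 7203 cells. Further unnamed clusters with progenitor or preadipocyte markers held 1766 and 1762. In ob/ob-Rosi of iWAT these numbers were 714 and 53 of 9674 cells, and 1101 and 56 of 17500. The comparisons of iWAT classes below leave such cells out unless stated. Obese fat is known for more leptin RNA and more lipid-associated macrophages than lean fat. The ob/ob-Veh libraries of eWAT were low in such macrophages, and in leptin RNA when set beside RNA of an adipocyte gene. Per 100 UMIs of Adipoq, an adipocyte gene, the eWAT libraries held 28.0 and 42.5 UMIs of Lep in those labelled WT-Veh, 3.95 and 16.2 in ob/ob-Veh and 240.0 and 390.1 in ob/ob-Rosi. Per 1000000 UMIs of the kept cells, Lep stood at 0.784 and 0.996, 0.139 and 1.03, and 1.74 and 4.49 for these groups. WT-Veh and ob/ob-Veh thus overlapped by that measure. Adipoq stood at 2.80 and 2.34, 3.51 and 6.33, and 0.725 and 1.15. Cells like lipid-associated macrophages numbered 3107 and 956, 37 and 35, and 1816 and 2263 for these groups. In iWAT, Lep stood at 20.1 and 31.6, 36.4 and 15.1, and 164 and 141 per 100 UMIs of Adipoq, so that WT-Veh and ob/ob-Veh overlapped. The ob/ob-Veh values there rest on 4 and 8 UMIs of Lep and 11 and 53 of Adipoq. Per 1000000 UMIs, Lep stood at 1.69 and 1.66, 0.157 and 0.408, and 3.42 and 2.97, without overlap. Cells like lipid-associated macrophages numbered 607 and 469, 33 and 10, and 820 and 817. Cells that float with the adipocytes were not sampled, so few such cells in the tissue and few in the SVF cannot be told apart. That limit concerns the cell numbers and not Lep per Adipoq. Measures made outside these libraries were not used here, and group names below are those of the labels. Whether the labels or the preparation of the libraries had a part in these values was not tested. Every direction named below rests on the labels.

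Pparg lies at chr6:115360951-115490399 on the plus strand of GRCm38, Rxra at chr2:27676440-27762957 on the plus strand and Ncor1 at chr11:62316426-62458541 on the minus strand. None of the 8 genes shares exon bases on its strand with another protein-coding gene. Pparg has several transcription starts whose transcripts end alike, and UMIs counted at the 3′ end of the RNA cannot tell them apart, so every Pparg value below is a sum over them. The regions around 3 of its starts are shown because they are what this sum covers, and that of Plin2, a lipid droplet gene, because it changed in several classes of cells. They run from 250 bases before to 50 bases after the start (RefSeq, GRCm38.p6). Capitals mark AGGTCA or its reverse complement TGACCT, the hexamer that PPARs and RXRs are known to bind. These lie at chr6:115360894-115361193, chr6:115362099-115362398 and chr6:115421816-115422115 on the plus strand for Pparg, and at chr4:86670010-86670309 on the minus strand for Plin2.
Pparg, first start: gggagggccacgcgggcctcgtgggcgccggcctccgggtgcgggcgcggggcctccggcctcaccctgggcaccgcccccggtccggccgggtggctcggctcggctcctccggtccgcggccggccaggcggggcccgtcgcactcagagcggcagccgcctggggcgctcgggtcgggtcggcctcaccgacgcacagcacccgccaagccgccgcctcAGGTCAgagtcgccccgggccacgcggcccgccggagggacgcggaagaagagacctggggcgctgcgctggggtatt
Pparg, second start: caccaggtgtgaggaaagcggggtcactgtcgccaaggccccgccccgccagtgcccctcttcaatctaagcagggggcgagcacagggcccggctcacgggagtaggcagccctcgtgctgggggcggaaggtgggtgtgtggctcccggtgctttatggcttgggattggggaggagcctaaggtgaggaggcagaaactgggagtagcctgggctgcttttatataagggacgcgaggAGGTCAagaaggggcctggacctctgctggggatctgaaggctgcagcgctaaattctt
Pparg, the third start: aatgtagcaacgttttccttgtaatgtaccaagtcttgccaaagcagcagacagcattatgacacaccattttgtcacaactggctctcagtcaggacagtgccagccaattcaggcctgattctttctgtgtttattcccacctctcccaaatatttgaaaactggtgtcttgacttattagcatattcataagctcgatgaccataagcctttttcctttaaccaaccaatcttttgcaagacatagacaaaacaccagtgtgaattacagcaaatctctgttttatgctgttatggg
Plin2: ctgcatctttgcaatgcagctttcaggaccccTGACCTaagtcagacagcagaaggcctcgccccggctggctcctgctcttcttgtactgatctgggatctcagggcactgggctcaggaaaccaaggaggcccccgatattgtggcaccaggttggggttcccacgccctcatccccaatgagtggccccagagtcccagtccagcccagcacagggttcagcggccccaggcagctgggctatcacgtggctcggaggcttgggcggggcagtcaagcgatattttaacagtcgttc

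The hexamer began 28 bases before the first start of Pparg and 9 bases before the second, and was not found around the third. Around Plin2 it began 218 bases before the start. Of 32851 such regions of the mouse genome, 16.3% held the hexamer on either strand, so that a single match is common. The direct repeat AGGTCANAGGTCA, the full PPAR and RXR element, was found in 0.0396% and in none of the 4 shown. One Rxra start held 2 hexamers, 87 and 48 bases before it, while the regions of Ncor1, Ppara, Ppard, Rxrb and Ppargc1a held none.

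Pparg was concentrated in endothelial cells. Levels are given as UMIs per 1000000 UMIs of a class of cells in 1 library (CPM). In EC-like cells of eWAT, Pparg stood at 206 and 256 CPM in WT-Veh, 287 and 204 in ob/ob-Veh and 136 and 164 in ob/ob-Rosi. In those of iWAT it stood at 197 and 340.0, 215 and 249, and 253 and 148 CPM for these groups. EC-like cells had the highest Pparg level of all classes in 6 of 6 libraries of each depot, 3.83 to 9.0 times that of the next class in eWAT and 2.71 to 11.8 times in iWAT. They made up 5.62% of eWAT cells and held 39.4% of their Pparg UMIs, and in iWAT 12.8% of cells held 72.2%. The EC-like cluster of eWAT carried 9 of 9 endothelial markers.

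**Figure D1:**
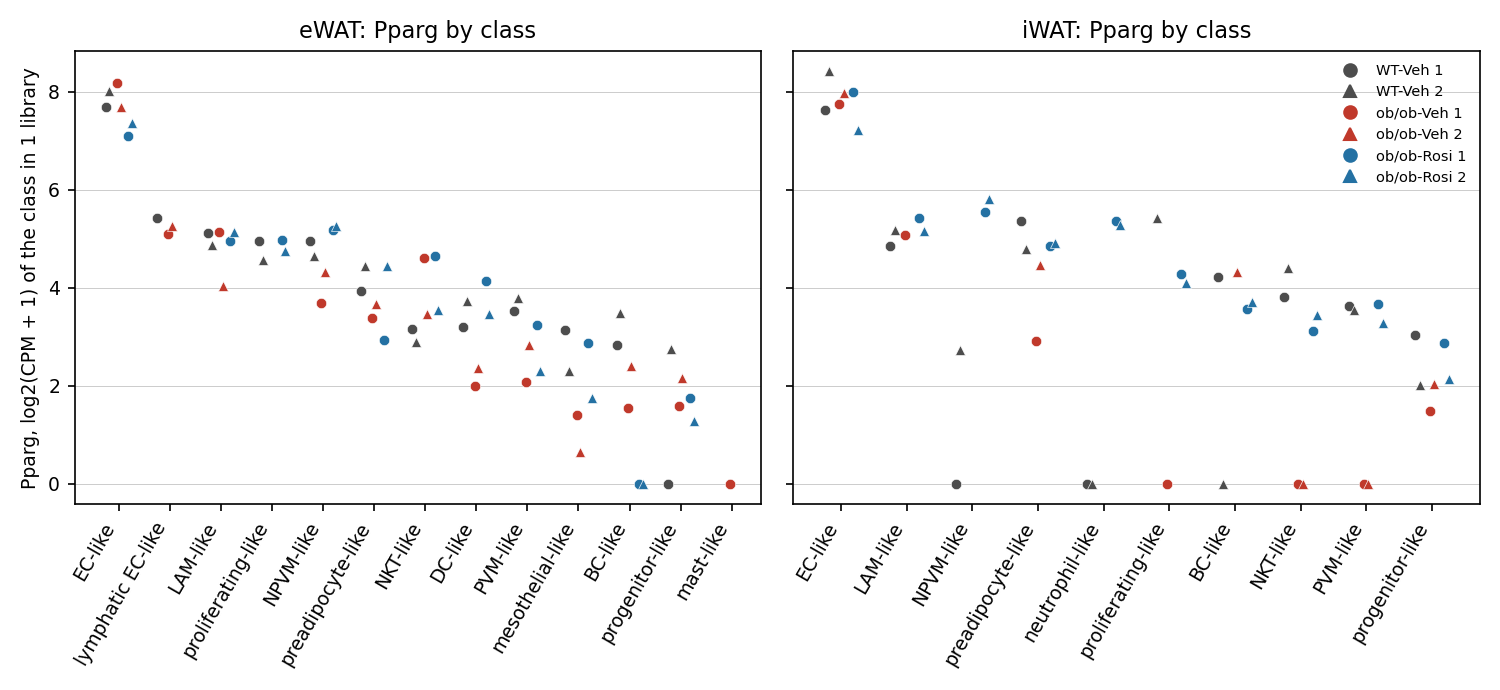
Pparg level, as log2(CPM + 1), in each class of cells and each library of eWAT (left) and iWAT (right). Points are single libraries, colours are groups and shapes are replicates. EC-like cells lie above every other class in all 12 libraries, and each class below them overlaps the next.

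The share of EC-like cells with at least 1 Pparg UMI was 30.8% to 66.0% in eWAT and 21.5% to 70.7% in iWAT. Thinned to 700 UMIs per cell, so that depth was equal, the shares were 8.11% to 18.3% and 8.18% to 21.6%. BC-like cells were read for comparison, although B cells can also express PPARγ, so their share need not be background alone. In BC-like cells the share was 0% to 2.13% in eWAT (0% to 1.24% thinned) and 0% to 2.82% in iWAT (0% to 1.89%). Median depth per library was 1898 to 4612 UMIs in EC-like and 1266 to 3257 in BC-like cells of eWAT, and 1283 to 4807 and 950.0 to 1521 in iWAT.

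Below EC-like cells the order of Pparg levels was not resolved, since each class overlapped the next. In eWAT, cells like lymphatic endothelium averaged 37.3 CPM (3 libraries) and LAM-like cells, the lipid-associated macrophages, 29.3. NPVM-like cells, macrophages and monocytes that do not lie along vessels, averaged 26.2 CPM there, and PVM-like cells, the perivascular macrophages, 7.50. Among the mesenchymal cells that give rise to adipocytes, preadipocyte-like cells averaged 13.9 CPM in eWAT and 25.3 in iWAT. Progenitor-like cells, which stand earlier, averaged 2.51 and 4.15 CPM, the lowest Pparg level of any class with more than 1 library in eWAT and of any class in iWAT.

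Ppard, which is expressed in most tissues, averaged 4.18 to 14 CPM in the eWAT classes with more than 1 library. Its highest means were 14 CPM in EC-like cells of eWAT and 13.7 in NPVM-like cells of iWAT, each overlapping the next class. With lengths not taken into account, Ppard stood beside Pparg at means of 10.6 and 2.51 CPM in progenitor-like and 12.2 and 7.50 in PVM-like cells of eWAT, and of 8.79 and 4.15 and 11.0 and 7.07 in those of iWAT. Ppara, the receptor of liver and brown fat, gave 364 UMIs in all 12 libraries and averaged 3.96 CPM at most, in progenitor-like cells of eWAT.

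The RXR genes were spread over the classes. Rxra had its highest mean in PVM-like cells, at 37.3 to 72.6 CPM in eWAT and 39.8 to 81.7 CPM in iWAT. These cells led in 4 of 6 libraries of eWAT and 6 of 6 of iWAT. In iWAT the ob/ob-Veh values of 81.7 and 80.0 CPM rest on 10 and 12 UMIs in 24 and 54 cells. The few cells like lymphatic endothelium in eWAT averaged 46.0 CPM, and EC-like, preadipocyte-like and progenitor-like cells had class means of 32.0 to 37.8 CPM in both depots. PVM-like cells overlapped the next class in each. Rxrb varied less between classes, with means of 22.6 to 38.2 CPM in eWAT and 20.6 to 37.7 in iWAT. In all 10 classes compared between groups, the library numbered 2 held more Rxrb than the one numbered 1, within WT-Veh and within ob/ob-Rosi alike, but in 4 of 10 within ob/ob-Veh. The same order held for Ppargc1b in 9 of 10 within each group, and for Ppard in 8 of 10 within WT-Veh, 10 of 10 within ob/ob-Veh and 9 of 10 within ob/ob-Rosi.

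Of the coactivators, Ppargc1b was highest in PVM-like cells, at a mean of 12.4 CPM in eWAT and 18.4 in iWAT, and overlapped the next class in both. Ppargc1a, known from brown fat and muscle, gave 471 UMIs in all, and preadipocyte-like cells held 53.5% of those of eWAT and 50.8% of those of iWAT, at a mean of 2.80 CPM in the latter. The higher mean of 8.49 CPM in NKT-like cells (natural killer and T cells) of iWAT rested on ob/ob-Veh replicate 1, with 43.1 CPM from 7 UMIs in 140 cells, beside 0 to 5.45 CPM in the other libraries. Ncor1, the corepressor, was the most abundant of the 8 in UMIs, with 98949, although lengths were not taken into account. EC-like cells led for Ncor1 too, with a mean of 465 CPM in eWAT (highest in 6 of 6 libraries) and 469.9 in iWAT (4 of 6).

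**Figure D2:**
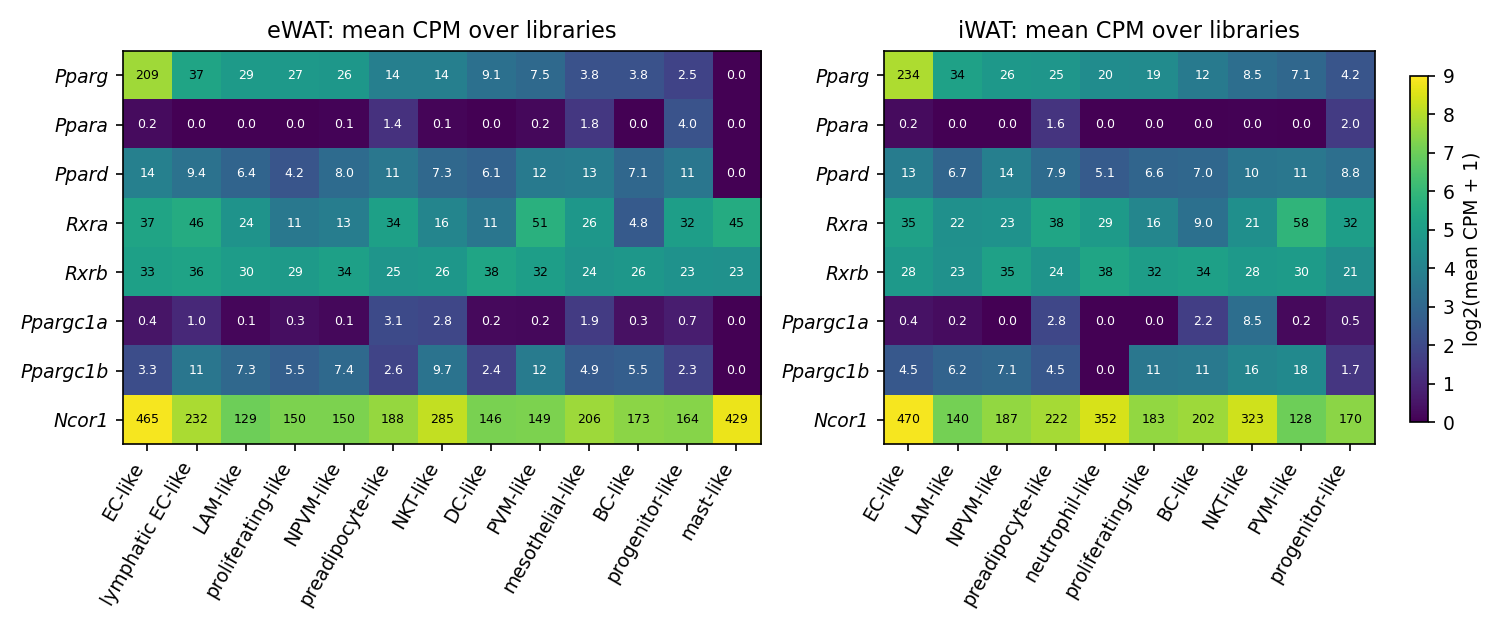
Mean level of the 8 genes (rows) in each class of cells (columns) of eWAT and iWAT. Colour is log2(mean CPM + 1) over the libraries with at least 20 cells of the class, and the printed number is the mean CPM. EC-like cells hold the most Pparg and PVM-like cells of iWAT the most Rxra, while Ppara and Ppargc1a stay near 0 in most classes. The PVM-like cells of iWAT numbered only 24 and 54 in ob/ob-Veh.

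Over the 23 depot and class means, the genes whose pattern was most like Pparg among 11252 were Myo10 (Pearson r = 0.88), Ndufc2 (0.85) and Nes (0.84). For Rxra they were Prkaa1 (0.87), Tcn2 (0.86) and Slc35f5 (0.86), and for Ncor1 they included Rnf20 (0.88) and Tsnax (0.87). Rxrb had weaker matches, Kctd12 (0.72), Arid4a (0.70) and Dhx38 (0.69). These means share libraries and depth, and the correlations are a description. The other 4 genes did not reach the 20 CPM set for this.

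Groups were then compared within a class, on UMIs summed per library (edgeR quasi-likelihood test, Benjamini-Hochberg adjustment over all genes tested). A call needed a minimum change of 1.1-fold and an adjusted p no higher than 0.05. The classes with enough cells were 6 in eWAT and 4 in iWAT. The smallest p that an exact permutation of 2 against 2 libraries can give is 0.33, so that tests here rest on a spread shared across genes, and the p-values measure the spread between single mice. The obesity effect (ob/ob-Veh against WT-Veh) and the Rosi effect (ob/ob-Rosi against ob/ob-Veh) share the ob/ob-Veh libraries. Obesity and the loss of leptin cannot be told apart in the former, and "obesity" below names the comparison only.

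For the obesity effect in eWAT, 35 of 48 pairs of a gene and a class passed the filter on low counts and 0 were called, with 4 at an unadjusted p under 0.05. Of all genes tested, 3.71% were called in progenitor-like, 11.0% in preadipocyte-like, 4.59% in EC-like, 3.22% in PVM-like, 3.84% in NPVM-like and 0.560% in LAM-like cells. In iWAT, 26 of 32 pairs were tested and 0 called, with 2 at an unadjusted p under 0.05. The background there was 0.614% in progenitor-like, 0.175% in preadipocyte-like, 0.710% in EC-like and 0.00855% in PVM-like cells.

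For the Rosi effect, 1 of 35 pairs tested was called in eWAT and 0 of 26 in iWAT, with 3 and 4 at an unadjusted p under 0.05. All genes tested gave 3.43%, 13.2%, 3.54%, 2.57%, 5.50% and 0.280% called in eWAT, in the order of classes above, and 1.97%, 1.62%, 0.247% and 0% in iWAT. Between ob/ob-Rosi and WT-Veh, 0 of the 35 and 0 of the 26 pairs were called, with 2 and 0 at an unadjusted p under 0.05. Few genes of any kind were called there, 0%, 0%, 0.258%, 0%, 0.00957% and 0.0350% in eWAT and 0%, 0%, 0.0877% and 0% in iWAT. A single call among these pairs lies within the background and is no result about the 8 genes as a group.

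The call was Pparg in NPVM-like cells of eWAT, which rose with Rosi. It stood at 29.8 and 24.0 CPM in WT-Veh, 11.9 and 18.9 in ob/ob-Veh and 35.4 and 37.3 in ob/ob-Rosi. Both ob/ob-Veh libraries lay below both WT-Veh libraries, and both ob/ob-Rosi libraries lay above all others. The Rosi effect was 1.34 ± 0.30 (log2, SE, 2.54-fold, 95% interval 0.70 to 1.98, n = 2 per group, edgeR adjusted p = 0.018). The obesity effect was -0.97 ± 0.31 and did not pass (adjusted p = 0.11). NPVM-like cells were 2 clusters in eWAT, led by Lyz1, Ear2 and Ccr2 and by Chil3, Cx3cr1 and Plac8. In the larger, Pparg followed the same order, at 32.4 and 25.3, 11.6 and 17.1, and 37.9 and 38.6 CPM. In the smaller, the ob/ob-Veh values of 16.3 and 51.2 CPM enclosed those of the other groups. RNA of 10 adipocyte genes summed in NPVM-like cells to 9.26 and 15.1 CPM in WT-Veh, 13.7 and 30.4 in ob/ob-Veh and 6.30 and 6.22 in ob/ob-Rosi. Only 2 of the 10 passed the filter on low counts there, and their part in the Pparg values was not tested.

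The call did not hold without any one of 3 libraries, at log2 1.09 (adjusted p = 0.21) without ob/ob-Veh replicate 1, 1.60 (0.051) without ob/ob-Veh replicate 2 and 1.28 (0.078) without ob/ob-Rosi replicate 2. With cells thinned to 700 UMIs it was 1.09 (adjusted p = 0.21).

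**Figure D3:**
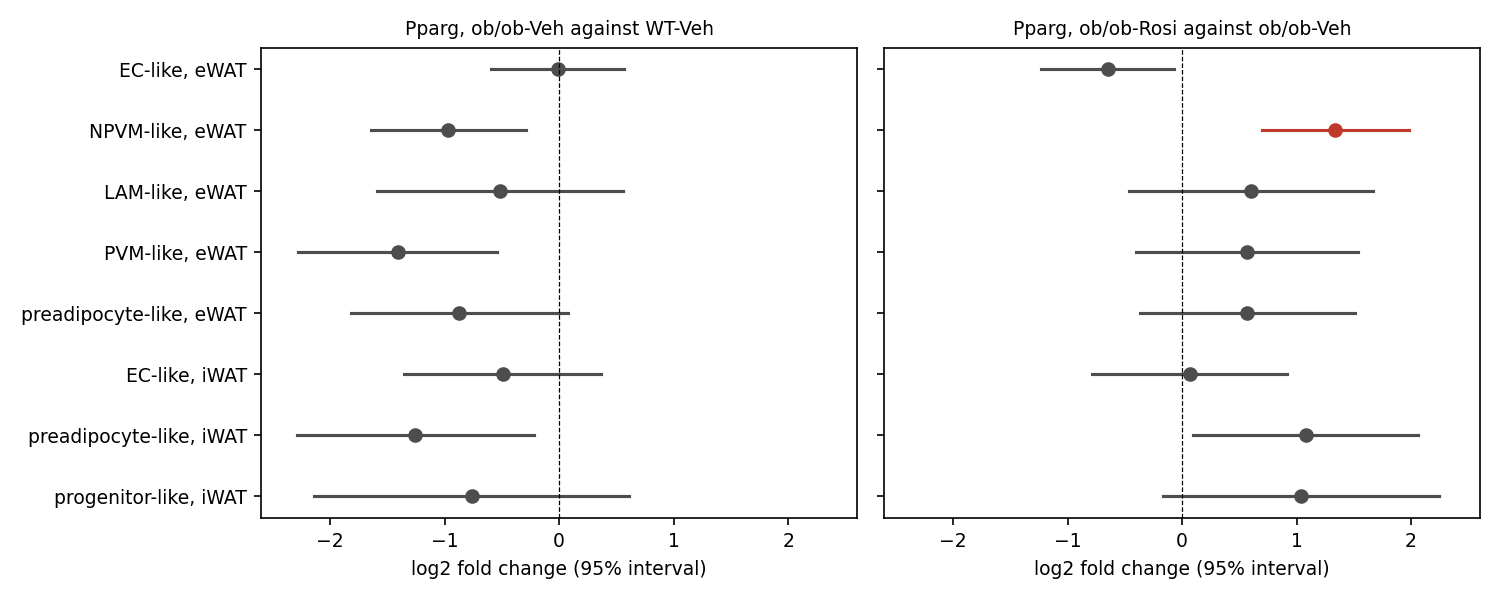
Obesity effect (left) and Rosi effect (right) on Pparg in the 8 classes where it was tested and no group was at 0 UMIs, as log2 fold change with its 95% interval from edgeR. The red point is the call, the Rosi effect of 1.34 in NPVM-like cells of eWAT, and 7 of 8 Rosi effects lie above 0 while 8 of 8 obesity effects lie below it.

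The obesity effect on Pparg was below 0 in 8 of 8 classes, at -0.01 in EC-like cells of eWAT, and the Rosi effect above 0 in 7 of 8. The classes of a depot came from the same libraries, so these are not independent counts. With library size alone as scaling these became 7 of 8 and 6 of 8, so 1 class in each changed side. In PVM-like cells of eWAT, Pparg stood at 10.5 and 12.8 CPM in WT-Veh, 3.25 and 6.09 in ob/ob-Veh and 8.48 and 3.93 in ob/ob-Rosi. Both ob/ob-Veh libraries were below both WT-Veh libraries (log2 -1.41 ± 0.39, adjusted p = 0.073), and the ob/ob-Rosi libraries overlapped them. Different clusters held most PVM-like cells, a cluster led by Ccl8 and Fcna those of WT-Veh and ob/ob-Rosi and a cluster led by Mmp9 and Cd209d those of ob/ob-Veh. The 10 adipocyte genes summed to 8.47 and 11.8 CPM, 58.1 and 62.8, and 4.68 and 3.93 in these cells, and their part in the Pparg values was not tested.

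PVM-like cells of iWAT numbered only 24 and 54 in ob/ob-Veh and held no Pparg UMI. A count of 3 UMIs over both libraries would have given 11.0 CPM. The WT-Veh libraries stood at 11.3 and 10.7 CPM and the ob/ob-Rosi libraries at 11.7 and 8.78, so a difference was not detectable at this depth. Most macrophages of the iWAT ob/ob-Veh libraries, 2654 and 2013 cells, were in a cluster led by Mmp9 that was left unnamed. When this cluster was counted as PVM-like, an alternative chosen after seeing the data, Pparg stood at 11.2 and 10.7 CPM in WT-Veh, 2.78 and 4.63 in ob/ob-Veh and 11.7 and 8.78 in ob/ob-Rosi. Both effects were then called, at log2 -1.74 (adjusted p = 0.034) and 1.65 (0.029), as were 5.38% and 11.0% of all genes tested. The groups filled different clusters, since the PVM-like cells numbered 936 and 2951 without and 949 and 2955 with the added cluster in WT-Veh, against 24 and 54 without and 2678 and 2067 with it in ob/ob-Veh. These effects thus compare 1 cluster with another, and a change within a cell type cannot be told apart from a change of cell type.

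In preadipocyte-like cells of iWAT, Pparg stood at 40.4 and 26.6 CPM in WT-Veh, 6.50 and 21.1 in ob/ob-Veh and 28.0 and 29.2 in ob/ob-Rosi. Neither effect passed, at log2 -1.26 ± 0.46 (adjusted p = 0.25) and 1.08 ± 0.44 (0.20). Their size turned on the ob/ob-Veh libraries, at -0.67 and 0.50 without replicate 1 and -2.27 and 2.10 without replicate 2. In those of eWAT it stood at 14.2 and 20.9, 9.50 and 11.7, and 6.69 and 20.8 CPM, with an obesity effect of -0.87 ± 0.43 (adjusted p = 0.21). The ob/ob-Rosi values enclosed those of ob/ob-Veh there, and the Rosi effect was not called. Most ob/ob-Veh preadipocyte-like cells of eWAT were in clusters of their own. Progenitor-like cells were tested for Pparg in iWAT only, at 7.20 and 3.07 CPM in WT-Veh, 1.79 and 3.09 in ob/ob-Veh and 6.32 and 3.43 in ob/ob-Rosi. WT-Veh and ob/ob-Veh overlapped, and both ob/ob-Rosi libraries lay above both ob/ob-Veh libraries (Rosi effect 1.04 ± 0.54, adjusted p = 0.35). With the unnamed clusters of progenitor or preadipocyte markers added, an alternative chosen after seeing the data, the levels were 21.0 and 11.4, 2.21 and 4.42, and 6.78 and 3.80 CPM. WT-Veh and ob/ob-Veh then did not overlap (obesity effect -2.29 ± 0.48, adjusted p = 0.060). The added clusters held 38 and 228 cells of WT-Veh, 1766 and 1762 of ob/ob-Veh and 53 and 56 of ob/ob-Rosi, so that the groups filled different clusters and the levels depend on which cells were pooled.

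EC-like cells of eWAT went the other way. Both ob/ob-Rosi libraries lay below the other 4 for Pparg, with a Rosi effect of -0.65 ± 0.27 that did not pass (unadjusted p = 0.032, adjusted p = 0.21) and became -0.35 without ob/ob-Veh replicate 1. Ncor1 had the same order there, at 499 and 648 CPM in WT-Veh, 514 and 519 in ob/ob-Veh and 282 and 329 in ob/ob-Rosi. Its Rosi effect was -0.70 ± 0.24 (adjusted p = 0.14), and ob/ob-Rosi against WT-Veh gave -0.94 ± 0.24 (adjusted p = 0.17). DESeq2 called the latter (adjusted p = 0.035). These cells formed a single cluster, in which adipocyte RNA differed widely: the 10 adipocyte genes summed to 52.1 and 61.1 CPM in WT-Veh, 1199.8 and 1020.2 in ob/ob-Veh and 29.3 and 25.6 in ob/ob-Rosi. The part of this in the EC-like values of the 8 genes was not tested.

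In EC-like cells of iWAT, Ncor1 stood at 410.0 and 725 CPM in WT-Veh, 452 and 545 in ob/ob-Veh and 344 in both ob/ob-Rosi libraries, which were the lowest (Rosi effect -0.26 ± 0.36, ob/ob-Rosi against WT-Veh -0.73 ± 0.35, adjusted p = 0.77). Most WT-Veh cells of this class were in clusters with few cells of the other groups. In the cluster that all groups shared, Ncor1 stood at 365 and 474, 467 and 546, and 357 and 378 CPM, where WT-Veh and ob/ob-Rosi overlapped, and Pparg at 249 and 261, 201 and 249, and 269 and 169 CPM.

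**Figure D4:**
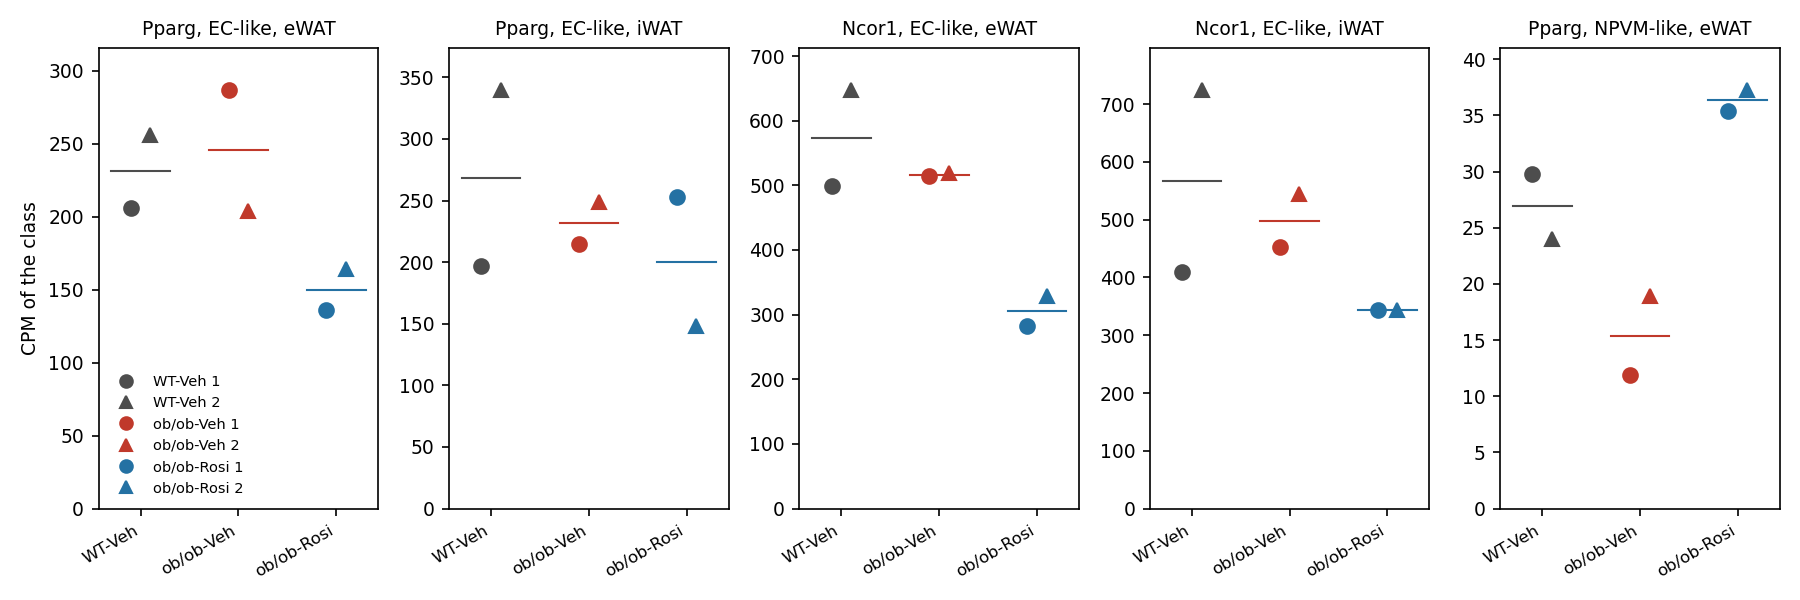
Levels (CPM) of Pparg and Ncor1 in EC-like cells of both depots and of Pparg in NPVM-like cells of eWAT. Points are single libraries, coloured by group, and lines are the means of 2. The ob/ob-Rosi libraries lie lowest for both genes in EC-like cells of eWAT and highest for Pparg in NPVM-like cells.

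No other gene of the 8 was called. In NPVM-like cells of eWAT, Rxra stood at 9.26 and 7.56 CPM in WT-Veh, 13.6 and 23.3 in ob/ob-Veh and 15.7 and 9.71 in ob/ob-Rosi (obesity effect 0.96 ± 0.41, adjusted p = 0.20). Ppargc1b there stood at 3.60 and 4.12, 9.87 and 12.8, and 6.30 and 7.47 CPM (obesity effect 1.42 ± 0.46, adjusted p = 0.10). The ob/ob-Veh libraries were thus highest for Ppargc1b in the class in which they were lowest for Pparg.

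The Rosi effect on Rxrb was above 0 in 10 of 10 classes, or 9 of 10 by library size alone and 7 of 9 after thinning. Its obesity effect was below 0 in 10 of 10, or 9 of 10 and 5 of 9 in these settings. Between ob/ob-Rosi and WT-Veh, Rxrb was higher in 6 classes and lower in 4. Low ob/ob-Veh values would give both signs at once. Classes of a depot come from the same libraries, so these are not independent counts. How many other genes keep 1 sign in every class was not tested. The Rosi effect on Rxrb nearest to a call was in EC-like cells of iWAT (0.91 ± 0.40, adjusted p = 0.27). Rxrb stood there at 22.7 and 34.3 CPM in WT-Veh, 19.2 and 22.8 in ob/ob-Veh and 25.7 and 42.4 in ob/ob-Rosi. The obesity effect on Ncor1 was below 0 in 10 of 10 classes, or 8 of 10 by library size alone, and ranged from -0.57 to -0.08. The -0.57 was in PVM-like cells of iWAT and became 0.21 when the Mmp9-led cluster was added, so that its direction there depends on 24 and 54 cells. Ppard had effects on both sides of 0, 5 above and 5 below for obesity. Ppara and Ppargc1a passed the filter in 2 classes each.

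Whether an effect differed between the depots was tested over all 12 libraries in the 4 classes they share, taken as independent although some may come from the same mice. Of 54 tests of the 8 genes, 0 were called, and 1 had an unadjusted p under 0.05. The 1 was the Rosi effect on Pparg in PVM-like cells (edgeR unadjusted p = 0.045), where ob/ob-Veh of iWAT held 0 Pparg UMIs. PVM-like cells of the depots were unlike, since a cluster led by Mmp9 was named PVM-like in eWAT and left unnamed in iWAT. A difference between depots in this class can thus not be told apart from a difference of clusters. Over all genes, 0.371% of obesity effects in progenitor-like, 0.320% in preadipocyte-like, 0.0247% in EC-like and 0% in PVM-like cells differed between depots. For Rosi effects these were 0.308%, 0.448%, 0.0247% and 0%.

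A list of 40 PPAR target genes, chosen with results of these data known, was read beside the 8 genes. The part of RNA carried over from other classes of cells in the values of this list was not tested. Fabp5, which carries fatty acids within cells, fell with obesity in 8 of 10 classes and rose with Rosi in 6 of 10. In PVM-like cells of eWAT it stood at 302 and 261 CPM in WT-Veh, 13.3 and 24.9 in ob/ob-Veh and 253 and 282 in ob/ob-Rosi. Its obesity effect there was -3.99 ± 0.31 (adjusted p = 5.4e-04) and its Rosi effect 3.94 ± 0.31 (adjusted p = 3.7e-04). As stated above, most of these cells of ob/ob-Veh were in another cluster than those of the other groups, so the effects compare different clusters. In progenitor-like cells of iWAT, where Pparg was at 7.20 CPM or less, the effects on Fabp5 were -4.51 ± 0.52 and 4.19 ± 0.51.

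Its relative Fabp4, a common mark of fat cells and of endothelium, fell with obesity in 5 of 10 classes and rose with Rosi in 2. Plin2, which coats lipid droplets, fell in 5 and rose in 3, and Cd36, which takes up fatty acids, fell in 2 and rose in 2. These counts held under library size scaling, except that Fabp4 fell in 4 classes. DESeq2 gave other counts: Fabp5 fell with obesity in 8 classes and rose with Rosi in 8, Fabp4 fell in 6 and rose in 5, Plin2 fell in 6 and rose in 3, and Cd36 fell in 4 and rose in 2.

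In progenitor-like cells of eWAT, 5 of 27 target genes tested fell with obesity and 4 rose with Rosi (medians -0.32 and 0.21, all genes -0.02 and 0.01). Of all genes there, 2.18% fell and 2.06% rose in these comparisons. In preadipocyte-like cells of eWAT, 9 of 31 fell with obesity, while 6 rose and 2 fell with Rosi, where 6.08% of all genes fell with obesity and 7.35% rose and 5.83% fell with Rosi. Cyp4b1, a fatty acid hydroxylase gene, stood there at 43.6 and 60.6 CPM in WT-Veh, 0.634 and 1.98 in ob/ob-Veh and 44.4 and 87.6 in ob/ob-Rosi (obesity effect -5.43 ± 0.48, Rosi effect 5.78 ± 0.48). The ob/ob-Veh libraries stood far below the rest, with most of their cells in clusters of their own. Me1, which supplies NADPH for lipid synthesis, was among those that fell with Rosi in that class.

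In NPVM-like cells of eWAT, where Pparg was called, 4 of 26 target genes fell with obesity, and the same 4, Fabp4, Fabp5, Plin2 and Angptl4, rose with Rosi (of all genes, 1.92% fell and 2.59% rose). Angptl4, a secreted inhibitor of lipoprotein lipase, stood at 62.2 and 52.2 CPM in WT-Veh, 11.8 and 14.9 in ob/ob-Veh and 27.9 and 29.1 in ob/ob-Rosi. Pdk4, which restrains glucose oxidation, fell with Rosi there (-2.49 ± 0.67, adjusted p = 0.044), as did 2.91% of all genes. In PVM-like cells of eWAT, Pck1 and Pdk4 rose and Fabp4 and Fabp5 fell with obesity, while with Rosi Fabp4 and Fabp5 rose and Pdk4 and Scd1 fell. Of all genes there, 1.46% rose and 1.77% fell with obesity, and 1.67% rose and 0.905% fell with Rosi. The groups filled different clusters in this class, and of the 3 adipocyte genes tested there 2 rose with obesity and 1 fell with Rosi (medians 3.62 and -2.34), whose part in the Pck1 values was not tested. In LAM-like cells of eWAT, with 37 and 35 cells in ob/ob-Veh, 2 of 30 fell with obesity and 0 were called with Rosi (0.280% of all genes fell with obesity and 0.280% were called with Rosi).

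EC-like cells of eWAT, the highest in Pparg, had target genes on both sides. With obesity 6 of 34 rose and 7 fell, and with Rosi 1 rose and 12 fell (medians 0.01 and -0.57). Of all genes there, 1.89% rose and 2.71% fell with obesity, and 2.17% rose and 1.36% fell with Rosi. Among those that rose with obesity, Adipoq, Cidec and Plin4 are adipocyte genes, and the target list shares Plin1 with the 10 adipocyte genes too. Of these 10, 7 rose with obesity and 8 fell with Rosi in the same cells (medians 3.21 and -4.98). Their part in the values of Scd1 and of the other target genes in these cells was not tested. Scd1, which desaturates fatty acids, stood at 9.76 and 14.2 CPM in WT-Veh, 387 and 235 in ob/ob-Veh and 25.7 and 14.5 in ob/ob-Rosi. Fabp5 went the other way, at 4073 and 3469, 723 and 603, and 1303 and 1113 CPM (obesity effect -2.61 ± 0.26). Slc27a1, a fatty acid transporter, was the gene that rose with Rosi, at 43.4 and 42.4, 11.9 and 14.1, and 32.2 and 36.9 CPM (1.46 ± 0.29, adjusted p = 0.016). Against WT-Veh, 4 of 34 were lower in ob/ob-Rosi (0.166% of all genes), among them Plin1, Pdk4 and Fabp5.

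In progenitor-like cells of iWAT 1 of 32 target genes fell with obesity, and 1 rose and 1 fell with Rosi, beside 0.275%, 0.929% and 1.04% of all genes. In preadipocyte-like cells of iWAT 2 of 29 fell with obesity and 2 rose with Rosi, Cyp4b1 and Fabp5, beside 0.0961% and 0.795% of all genes. In EC-like cells of iWAT 1 of 35 rose and 3 fell with obesity and 1 fell with Rosi, beside 0.502%, 0.207% and 0.175% of all genes, and 2 were lower in ob/ob-Rosi than in WT-Veh (0.0558% of all genes). Pck1, a gene of glyceride synthesis, was the one that rose and then fell, at 0.608 and 0.550 CPM in WT-Veh, 51.3 and 41.0 in ob/ob-Veh and 0.421 and 0.947 in ob/ob-Rosi. Pck1 is also an adipocyte gene, and the 10 adipocyte genes summed in the same cells to 217 and 154, 490.4 and 415, and 80.1 and 111 CPM. Of the 8 adipocyte genes tested there, 0 were called with obesity and 1 fell with Rosi (medians 0.57 and -1.47), and the part of this in the Pck1 values was not tested. In PVM-like cells of iWAT 0 of 33 were called by edgeR in either comparison.

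**Figure D5:**
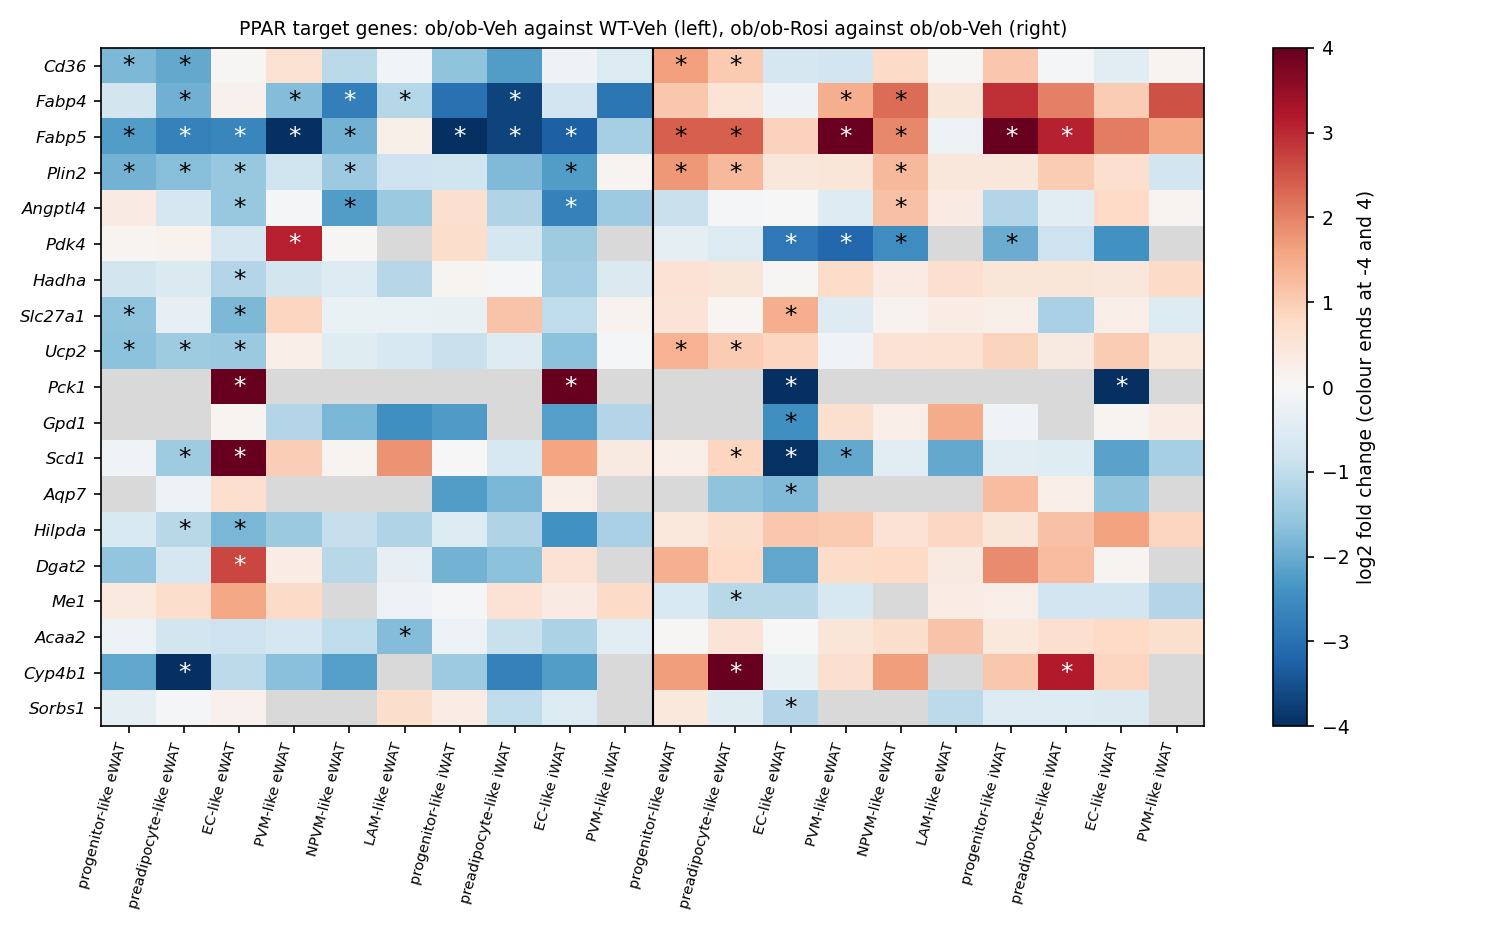
Obesity effects (left) and Rosi effects (right) on PPAR target genes called in at least 1 class, adipocyte genes and genes not reported here left out, as log2 fold change (blue lower, red higher, ends at -4 and 4). An asterisk marks a call and grey a gene not tested or with a group at 0 UMIs. Fabp5 fell with obesity in 8 of 10 classes and rose with Rosi in 6.

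Other receptors that pair with RXR were read from a list of 14. In NPVM-like cells of eWAT, Nr1h3 (LXRα, a sterol receptor) stood at 25.7 and 35.7 CPM in WT-Veh, 4.42 and 8.13 in ob/ob-Veh and 20.1 and 15.4 in ob/ob-Rosi. It fell with obesity (-2.45 ± 0.37, adjusted p = 0.0032) and rose with Rosi (1.61 ± 0.36, adjusted p = 0.020). Vdr, the vitamin D receptor, fell with Rosi in these cells (-2.02 ± 0.39), from 46.7 and 27.3 to 9.45 and 8.22 CPM. In progenitor-like cells of eWAT, Rarb, a retinoic acid receptor, rose with obesity (2.21 ± 0.53) and Thrb, a thyroid hormone receptor, fell (-1.36 ± 0.31). Of the genes of this list tested, 1 of 13 was thus called with obesity and 2 of 13 with Rosi in NPVM-like cells, beside 3.84% and 5.50% of all genes, and 2 of 12 with obesity in progenitor-like cells, beside 3.71%. No other gene of this list was called by edgeR in the classes and comparisons tested.

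Other coregulators came from a list of 20 genes, which also held the receptor gene Rxrg. In preadipocyte-like cells of eWAT 3 of 19 rose with obesity and 4 fell with Rosi, beside 4.91% and 5.83% of all genes in those directions. The list was chosen with results of these data known, so its counts are a description. Most ob/ob-Veh cells of this class were in clusters of their own, so these calls compare different clusters. Kat2b, an acetyltransferase, stood there at 37.3 and 41.1 CPM in WT-Veh, 96.1 and 113 in ob/ob-Veh and 46.3 and 31.3 in ob/ob-Rosi. Ncoa1, a coactivator, and Nrip1, a corepressor, also rose with obesity and fell with Rosi, and Cited2 fell with Rosi. In EC-like cells of eWAT Kat2b and Prdm16, a coregulator of brown fat genes, rose with obesity, 2 of 19 tested beside 1.89% of all genes. In the same cells 7 of 10 adipocyte genes rose (median 3.21), and their part in this was not tested. Kat2b also fell with Rosi in NPVM-like cells of eWAT and in preadipocyte-like cells of iWAT, and Ncoa3, a coactivator, fell with Rosi in progenitor-like cells of iWAT. These were 1 of 18, 1 of 19 and 1 of 19 genes tested. Of all genes, 2.91%, 94 of 11443 and 1.04% fell with Rosi in these classes.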

How the data were processed

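UMI counts per gene and cell, deposited by the authors as 10x matrices, had been made with Cell Ranger 3.0.2 and bcl2fastq 2.19.1.403 on mm10, per the labels' processing notes. Of 139755 barcodes, those with 700 to 22000 UMIs, 200 to 6000 genes and under 25% mitochondrial UMIs were kept. Each depot was clustered with scanpy 1.11.5 (2000 variable genes without the 8 genes and PPAR target genes, 25 components, 20 neighbours, Leiden resolution 1), and adipocyte progenitor cells were clustered again (15 components, resolution 0.6). A cluster was named when at least 3 markers of a class were found, and details of the naming were adjusted after the clusters were seen. Doublets were kept for the reported values, and an alternative left out cells that Scrublet marked. Its threshold took 0% of cells in WT-Veh eWAT replicate 2 and 24.5% in WT-Veh iWAT replicate 1. In the former, the 335 cells of highest score were left out instead, by the expected doublet rate. Counts were summed per library and class with at least 20 cells and fitted within a depot with edgeR 4.0.16 (TMM, filterByExpr, quasi-likelihood test, 3 residual degrees of freedom), and over both depots for depot differences. DESeq2 1.42.0 was an alternative. The procedure was tested on simulated data. The 8 genes, the lists and the tests were chosen with earlier results of these data known. The genes named from a list were the 2 called with the largest effect in each direction of a comparison; others were named to complete a count or across classes, after their values were seen. The like genes were the 3 of highest Pearson r over mean log2(CPM + 1) of each depot and class, among genes reaching 20 CPM. Positions are from GENCODE on GRCm38. Counts and floors of 3 UMIs cover counting error only. A few genes that the rules would name are not reported here, though they stay in the counts.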

Additional observations from a re-analysis of the deposited data

Results flagged for a closer look

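Rxra in PVM-like cells moved in opposite directions with Rosi in the depots. In eWAT both ob/ob-Rosi libraries (52.9 and 50.2 CPM) lay above both ob/ob-Veh libraries (46.1 and 47.2), at log2 0.27 ± 0.29. In iWAT both ob/ob-Rosi libraries (40.4 and 45.3 CPM) lay below both ob/ob-Veh libraries (81.7 and 80.0), at log2 -0.60 ± 0.39. Neither effect was called, and the test of the difference gave -0.83 ± 0.51 (edgeR adjusted p = 0.86). The iWAT ob/ob-Veh values rest on 24 and 54 cells. With the Mmp9-led cluster added to this class they were 62.6 and 44.0 CPM, the groups overlapped, and the effect was -0.15.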

How the results depend on the processing

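The count of calls among the 8 genes depended on the setting in both depots. For the obesity effect in eWAT, 0 calls became 1 (Pparg in PVM-like cells) with no filter on low counts, at clustering resolution 2 and with the replicate block. In iWAT it became 1 with no filter (Pparg, preadipocyte-like) and 1 with the Mmp9-led cluster added, an alternative chosen after seeing the data (Pparg, PVM-like). For the Rosi effect in eWAT, 1 call became 2 with no filter (Ppargc1a, preadipocyte-like, added), 2 with the replicate block (Ncor1, EC-like, added) and 0 with cells thinned to 700 UMIs. In iWAT 0 became 2 with no filter (Pparg and Ppargc1b, preadipocyte-like), 1 at resolution 2 (Pparg in NPVM-like cells, testable only there) and 1 with the Mmp9-led cluster (Pparg, PVM-like). Between ob/ob-Rosi and WT-Veh in eWAT, 0 became 1 with DESeq2 and 1 with the replicate block (Ncor1, EC-like). The cause was not tested. Leaving out 1 library gave 0 to 1 calls for the obesity effect in eWAT (Ppargc1a in preadipocyte-like cells without WT-Veh replicate 2) and 0 to 2 for the Rosi effect in eWAT (Pparg also in preadipocyte-like cells without ob/ob-Rosi replicate 1), and 0 in every other comparison. Of the remaining counts of calls, 66 under other settings and 43 with a library left out stayed as reported, and no direction of a called gene reversed.

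Replicate numbers were shared by only 2 libraries per group, and the labels tie no number to a mouse, batch or day, so the numbers were treated as shared names. Deviations of same-numbered libraries correlated at 0.16 to 0.37 in progenitor-, preadipocyte-, EC- and PVM-like cells of eWAT and at -0.03 to 0.61 in the other classes. The block changed no other call of the 8 genes. Under thinning or doublet removal, 18 class levels moved by more than the spread between libraries and 142 did not. Levels under a few CPM, as for Ppara and Ppargc1a, rest on few UMIs, and differences there were mostly not detectable at this depth.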
